A study of Schmidtea mediterranea with 9 samples.

Results

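The transcripts described here are the 6 that the study assigns to monoamine transporters of the planarian *Schmidtea mediterranea*, 4 named *sert* and 2 named *vmat*, among 36036 transcripts counted. They were taken by the names the study gave them, with earlier results of these data known. The paper already describes *vmat* and *sert* genes that appear to differ between ovaries and testes. All 9 libraries come from wild type worms of the Sexual strain, simultaneous hermaphrodites that carry ovaries and testes in the same body, and the labels name no treatment. Laser-capture microdissection, which cuts a chosen area out of a thin tissue section, was used to collect ovary, testis and surrounding non-gonadal tissue, with 3 libraries each. Every ovary library pooled 14 worms (10 cut in cross section and 4 sagittally), and every testis or non-gonadal library pooled 6 worms (4 in cross section and 2 sagittally), so the spread between individual worms is not seen. Each capture also holds all cell types of the area that was cut. Total counts lay between 18611584 and 25730833 per library.

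Serotonin and other monoamines are made from amino acids by a hydroxylase and a decarboxylase, loaded into vesicles by the vesicular monoamine transporter (VMAT) and released to act on receptors. The serotonin transporter (SERT) sits in the plasma membrane and carries released serotonin back into cells, which ends the signal. In animals generally, SERT belongs to the sodium-dependent neurotransmitter transporters, and VMAT belongs to a proton-driven family that also includes the vesicular acetylcholine transporter.

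Within each family, the transcript that dominated in testis was not the one that dominated outside it. In testis the *sert* signal came from SMED30009335, SMED30001138 and SMED30030401, whereas SMED30017160 had 2 reads in the 3 testis libraries together and was the most abundant *sert* in ovary and non-gonadal captures. Among the *vmat* transcripts, SMED30015164 dominated in testis, and SMED30016408 dominated in ovary and non-gonadal captures and was highest in ovary. Levels of different transcripts are compared as TPM, an abundance measure corrected for transcript length. Where reads of different transcripts are set side by side or summed instead, this is stated.

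Captures were checked against markers of the germ cells. The female markers *lecg*, which encodes a lectin, and *zfs1* stood at 2917 ± 123 and 143 ± 14.5 TPM in ovary (mean ± SD, n = 3 libraries, as for all TPM means below), and the spermatogenic marker *sped-1* stood at 8083 ± 384 TPM in testis. *nanos*, which marks early male and female germ cells, was present in ovary and testis at 66.2 ± 5.68 and 30.0 ± 4.26 TPM, and in non-gonadal captures at 11.4 ± 0.996 TPM. *zfs1* had 1 read in the 3 testis libraries together, and 17, 56 and 23 reads in non-gonadal libraries (3.29 ± 1.91 TPM). *lecg* was not restricted to ovary. It stood at 98.8 ± 7.37 TPM in testis, where its 5548 reads were called higher than in non-gonadal captures with a log2 fold change of 3.18 (SE 0.41, BH-adjusted p = 7.49e-06, edgeR), and at 14.7 ± 11.9 TPM in non-gonadal captures. The 4 testis markers examined (*sped-1*, *C3H-zfn-1*, *elav2* and *bic-c*) were not at 0 outside the testis. Their summed level was 25.1 to 52.9 TPM in non-gonadal libraries, 51.7 to 106 TPM in ovary libraries and 10237 to 11202 TPM in testis libraries.

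Differences between tissues were tested on counts with the edgeR quasi-likelihood test and Benjamini-Hochberg (BH) adjustment over the 18416 transcripts tested. A transcript was called at a change of at least 2-fold with an adjusted p of at most 0.01. All 6 transporter transcripts were tested, but SMED30001138, SMED30009335 and SMED30030401 passed the minimum level (a deposited CPM of 1 in at least 3 libraries) through their testis libraries alone, and SMED30015164 through 3 testis libraries and 1 ovary library. Their difference between testis and the other tissues was therefore built into their being tested. SMED30017160 passed through its non-gonadal and ovary libraries alone, so its differences from testis are a description as well. In a bulk capture, fewer cells that express a gene and less RNA per cell cannot be told apart.

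**Figure D1:**
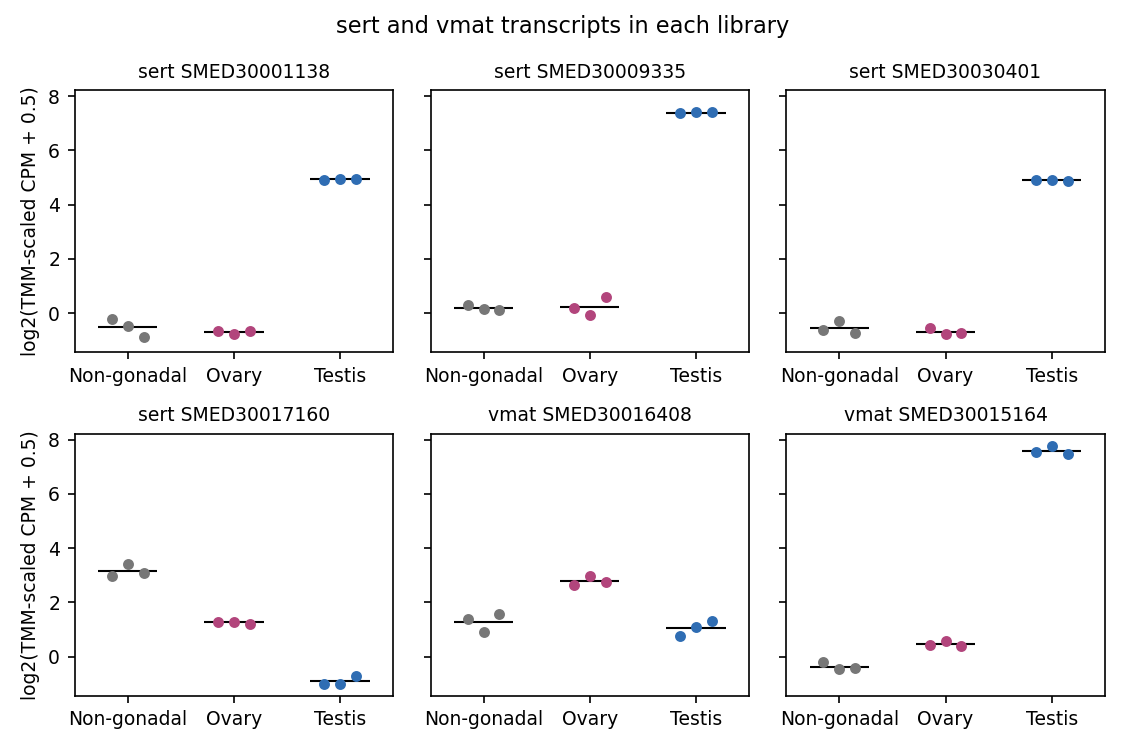
Each panel shows 1 transcript and each point 1 library (3 per tissue), as log2 of the TMM-scaled CPM plus 0.5, with black lines at the tissue means. SMED30001138, SMED30009335, SMED30030401 and SMED30015164 stand far above the other tissues in all 3 testis libraries, SMED30017160 is highest in non-gonadal captures, and SMED30016408 is highest in ovary.

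*sert* SMED30009335, a transcript of 2002 bases, was the most abundant *sert* of the testis. It had 2648, 2877 and 2938 reads in the testis libraries, 18, 16 and 28 in ovary and 14, 14 and 12 in non-gonadal captures. Testis libraries lay far above all others and did not overlap with them, whereas ovary and non-gonadal libraries overlapped after scaling. Its level was 57.0 ± 0.721 TPM in testis, 0.489 ± 0.183 TPM in ovary and 0.298 ± 0.0338 TPM in non-gonadal captures. Over non-gonadal captures testis was 8.00 higher on the log2 scale (SE 0.20, BH-adjusted p = 2.46e-12, edgeR quasi-likelihood), and it was lower in ovary than in testis, with a log2 fold change of -7.94 (SE 0.19, BH-adjusted p = 2.75e-12, edgeR). SMED30009335 was tested only because testis was high, so these differences from testis are a description. The ovary value relative to non-gonadal captures was 0.07 (SE 0.29, BH-adjusted p = 0.867, edgeR) and was not called. It was -0.27 without ovary replicate 3, the library with 28 reads.

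*sert* SMED30001138, at 1013 bases the shortest of the 6, had 480, 514 and 524 reads in testis, 4, 3 and 4 in ovary and 7, 5 and 1 in non-gonadal captures. *sert* SMED30030401, of 2028 bases, had 479, 510 and 497 reads in testis, 5, 3 and 3 in ovary and 3, 7 and 2 in non-gonadal captures. For both, every testis library was separate from the rest and the other tissues overlapped. SMED30001138 stood at 20.2 ± 0.342 TPM in testis and was higher there than in non-gonadal captures by 7.12 on the log2 scale (SE 0.26, BH-adjusted p = 3.31e-11, edgeR quasi-likelihood). SMED30030401 stood at 9.89 ± 0.310 TPM in testis, with a log2 fold change of 7.21 over non-gonadal captures (SE 0.24, BH-adjusted p = 1.33e-11, edgeR), which was 7.80 without non-gonadal replicate 2. Against testis, the ovary values were -7.91 (SE 0.27) for SMED30001138 and -7.88 (SE 0.24) for SMED30030401. Both transcripts were tested only because testis was high, so their differences from testis are a description. In ovary against non-gonadal captures neither was called, with -0.79 (SE 0.54, BH-adjusted p = 0.216, edgeR) and -0.67 (SE 0.49, BH-adjusted p = 0.295, edgeR). The second value was -0.08 without non-gonadal replicate 2. At 1 to 7 reads per library outside the testis, a change of moderate size was not detectable for these transcripts.

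SMED30001138 and SMED30030401 had nearly equal read counts in each testis library. Outside the testis their reads were too few to show this in single libraries. Their totals over 3 libraries were 1518 and 1486 in testis, 11 and 11 in ovary and 13 and 12 in non-gonadal captures. In testis SMED30001138 held 50.5% of the reads of the pair (95% exact binomial interval 48.7% to 52.3%, which covers counting error only), and the 2 counts differed by less than sampling noise in the 3 testis libraries (chi-square 0.731 on 3 degrees of freedom, p = 0.866, chosen after the counts were seen). The sequences were not used here and the handling of multiply mapped reads is not stated in the sources used here, so whether these transcripts share reads was not tested and their separate levels are uncertain. The pair was also summed into 1 row, as chosen after seeing the data. Its log2 difference between testis and non-gonadal captures was 7.18 (SE 0.22, BH-adjusted p = 7.38e-12, edgeR quasi-likelihood). Both transcripts passed the minimum level through testis alone, so this difference is a description. The summed row was not called in ovary against non-gonadal captures (-0.74, SE 0.42, BH-adjusted p = 0.136, edgeR).

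*sert* SMED30017160, at 2571 bases the longest of the 6, had the opposite distribution. It had 142, 225 and 162 reads in non-gonadal libraries, 55, 69 and 51 in ovary and 0, 0 and 2 in testis. The tissues did not overlap, with every non-gonadal library above every ovary library and every ovary library above every testis library. Its level was 3.03 ± 0.507 TPM in non-gonadal captures and 1.05 ± 0.0937 TPM in ovary, and in testis it was listed at 0 in 2 libraries and at 0.0305 TPM in the other. In ovary it was lower than in non-gonadal captures, with a log2 fold change of -2.16 (SE 0.23, BH-adjusted p = 2.67e-06, edgeR quasi-likelihood). Testis was called lower than non-gonadal captures (adjusted p = 2.67e-09, edgeR) and lower than ovary (adjusted p = 5.91e-07, edgeR). SMED30017160 passed the minimum level through non-gonadal and ovary libraries alone, so its differences from testis are a description. Because testis had 2 reads, these differences are given as scaled ratios with their exact 95% counting intervals, 216 for non-gonadal captures over testis (59.5 to 1788) and 48.0 for ovary over testis (13.1 to 400). Without testis replicate 3 the remaining testis libraries had 0 reads. With 3 counts assumed for that group, non-gonadal captures were 94.4-fold higher and ovary 21.0-fold higher. These 2 ratios do not allow for counting error in the higher tissue or for the spread between libraries.

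*vmat* SMED30016408, of 1702 bases, was the transporter transcript with the highest level in ovary. It had 161, 263 and 176 reads in ovary, 40, 31 and 50 in non-gonadal captures and 19, 28 and 35 in testis. Every ovary library was above every other library after scaling, and testis and non-gonadal libraries overlapped. Its level was 5.44 ± 1.13 TPM in ovary, 1.07 ± 0.291 TPM in non-gonadal captures and 0.645 ± 0.162 TPM in testis. The log2 fold change of ovary was 1.71 over non-gonadal captures (SE 0.24, BH-adjusted p = 3.07e-05, edgeR quasi-likelihood) and 1.99 over testis (SE 0.25, BH-adjusted p = 6.56e-06, edgeR). Testis against non-gonadal captures was not called, at -0.28 (SE 0.27, BH-adjusted p = 0.344, edgeR). SMED30016408 was the only 1 of the 6 with at least 19 reads in every library.

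*vmat* SMED30015164, of 2170 bases, had 2999, 3712 and 3040 reads in testis, 24, 35 and 23 in ovary and 7, 5 and 5 in non-gonadal captures. The 3 tissues did not overlap, with testis highest and non-gonadal captures lowest. Its level was 60.6 ± 6.00 TPM in testis, 0.583 ± 0.0992 TPM in ovary and 0.118 ± 0.0323 TPM in non-gonadal captures. Testis exceeded non-gonadal captures by 9.43 on the log2 scale (SE 0.19, BH-adjusted p = 2.23e-12, edgeR quasi-likelihood). Ovary lay below testis by a log2 fold change of -7.75 (SE 0.16, BH-adjusted p = 2.64e-12, edgeR). SMED30015164 passed the minimum level mainly through testis, so its differences from testis are a description. Ovary was also called higher than non-gonadal captures, at 1.67 (SE 0.29, BH-adjusted p = 2.51e-04, edgeR).

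**Figure D2:**
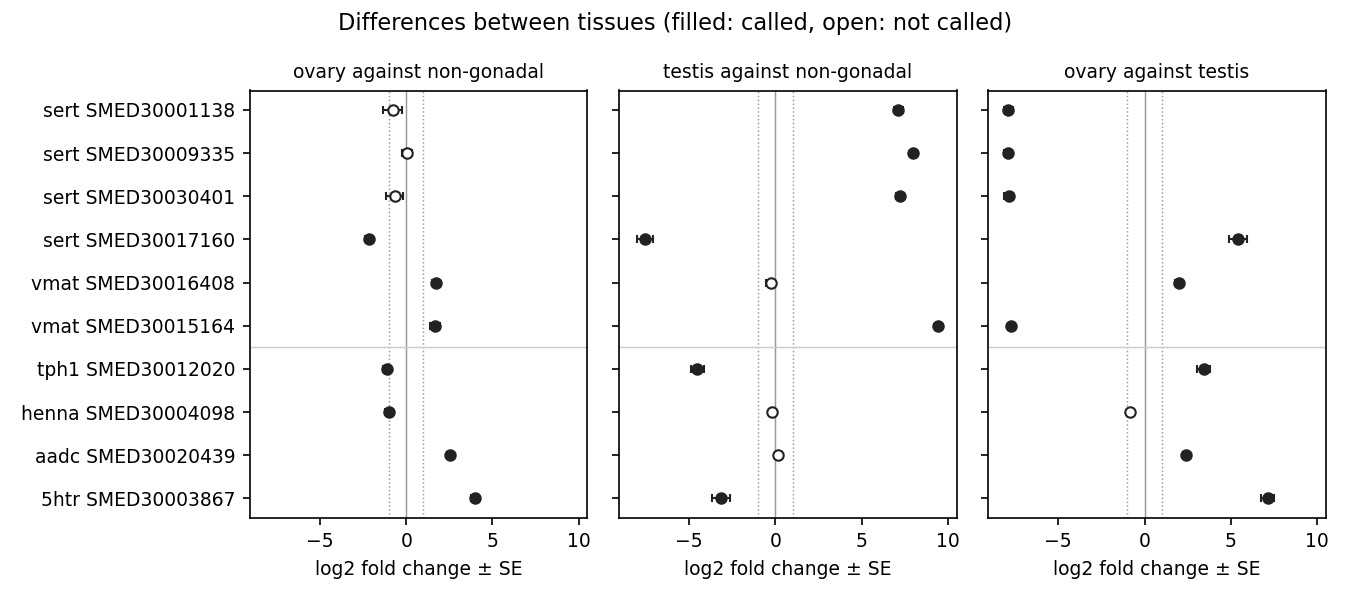
Log2 fold changes with standard errors are shown for the 6 transporter transcripts (above the grey line) and 4 other transcripts of the serotonin pathway (below it) in the 3 comparisons. Filled points were called and open points were not, and dotted lines mark a 2-fold change. The 4 testis-high transporters lie between 7.12 and 9.43 in testis against non-gonadal captures, and SMED30017160 lies on the opposite side. Those 4 passed the minimum level for testing only or mainly through their testis libraries. SMED30017160 and *tph1* passed through non-gonadal and ovary libraries alone, and *5htr* through ovary libraries alone.

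In ovary against non-gonadal captures, 2 of the 6 transcripts were called higher, both of them *vmat*, and 1 was called lower, *sert* SMED30017160. Of all transcripts tested, 18.3% were called higher in ovary and 18.8% lower. In testis against non-gonadal captures 4 of the 6 were called higher and 1 lower, where 33.4% of all transcripts tested were called higher in testis and 35.1% lower. Between the gonads, 2 were higher in ovary and 4 lower, where 31.6% of all transcripts tested were called higher in ovary and 30.4% lower. These shares of 6 transcripts, several of which were tested only because testis was high, are a description. The median log2 fold change of the 6 was -0.30 in ovary and 7.16 in testis, each relative to non-gonadal captures, and -7.82 in ovary relative to testis, beside 0.02, -0.10 and 0.22 for all transcripts tested. Scaling by library size alone in place of TMM shifted the 6 ovary-to-testis values by 0.89 to 0.97 and the median of all transcripts by 0.97, and no call on the 6 changed. Both gonads share the same non-gonadal libraries as their reference.

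In testis, SMED30015164 and SMED30009335 ranked 2675 and 2796 from the top among the 36036 transcripts by mean TPM. Their testis libraries overlapped, at 55.0 to 66.9 TPM and 56.2 to 57.6 TPM, so their order there is not beyond the spread. SMED30001138 and SMED30030401 followed, then SMED30016408 and SMED30017160, with no overlap between these neighbours. SMED30001138 and SMED30030401 had nearly equal reads, so their order here and in ovary comes from the correction for length. Whether they share reads was not tested. In ovary the order was SMED30016408, SMED30017160, SMED30015164, SMED30009335, SMED30001138 and SMED30030401, and only SMED30015164 and SMED30009335 overlapped, at 0.525 to 0.698 TPM and 0.346 to 0.695 TPM. In non-gonadal captures SMED30017160 ranked first and SMED30016408 second, with no overlap. The other 4 were at or below 0.336 TPM in every non-gonadal library, and each overlapped with its neighbour in the order.

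The make-up of each family was also compared within libraries, where it does not depend on how libraries are scaled against each other. SMED30017160 held 78.2%, 85.1% and 88.8% of the summed *sert* TPM in non-gonadal libraries, 58.1%, 68.3% and 50.5% in ovary and 0%, 0% and 0.0349% in testis. The share was thus largest in non-gonadal captures, intermediate in ovary and near 0 in testis, without overlap. SMED30009335 held 65.4% ± 0.360 of *sert* in testis, against 26.8% ± 7.91 in ovary and 8.38% ± 1.55 in non-gonadal captures (mean ± SD, n = 3), again without overlap. SMED30001138 held 23.2% ± 0.103 in testis, against 9.44% ± 1.68 in ovary and 5.33% ± 4.22 in non-gonadal captures. Counted in reads, SMED30001138 held 13.2% to 13.3% of *sert* in testis, so the size of its share depends on the correction for length. Its share in testis was above both other tissues without overlap (exact permutation p = 0.1, two-sided, the smallest that 3 against 3 libraries allow, BH-adjusted p = 0.225 over 9 tests), and those of ovary and non-gonadal captures overlapped (exact permutation p = 0.2, BH-adjusted p = 0.36).

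For *vmat*, SMED30016408 held 87.9%, 88.8% and 92.7% of the summed TPM in non-gonadal libraries, 89.5%, 90.5% and 90.7% in ovary and 0.801%, 0.953% and 1.45% in testis. The make-up was thus turned over in testis, and the shares of ovary and non-gonadal captures overlapped. The mean share differed by 89.2 percentage points between ovary and testis (exact permutation p = 0.1, two-sided, the smallest possible, BH-adjusted p = 0.225) and by 0.452 percentage points between ovary and non-gonadal captures (exact permutation p = 0.9, BH-adjusted p = 0.9). Both *vmat* transcripts were called higher in ovary than in non-gonadal captures, by 1.71 and 1.67 on the log2 scale. SMED30009335 held 85.2% ± 0.431 of its pair with SMED30030401 in testis, against 84.4% ± 5.98 in ovary and 78.5% ± 10.1 in non-gonadal captures, and the libraries of all 3 tissues overlapped (exact permutation p = 0.4 to 0.7, two-sided). With 14 to 31 reads of this pair per library outside the testis, its share there ranged from 67.0% to 90.4%, so these values do not show whether the proportion is stable.

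**Figure D3:**
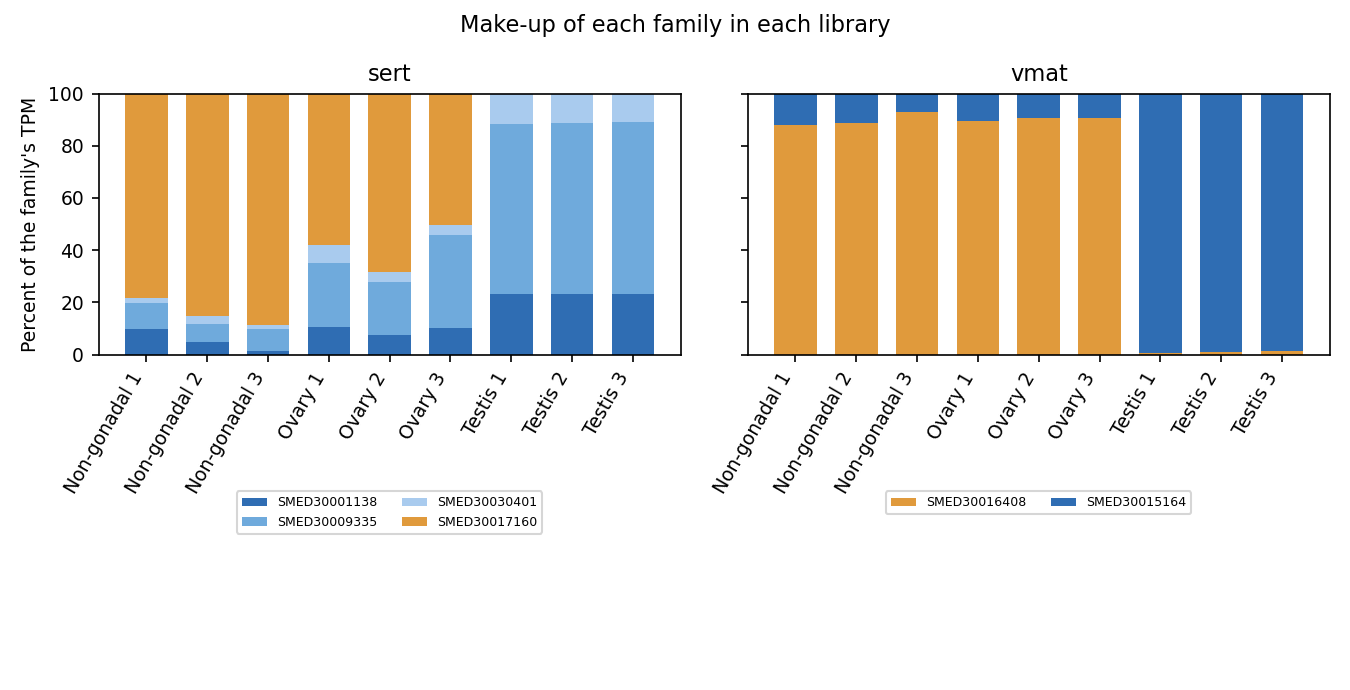
Stacked bars give the percent of the summed *sert* TPM (left) and *vmat* TPM (right) that each transcript held in each of the 9 libraries. SMED30017160 (orange, left) fills 50.5% to 88.8% of *sert* outside the testis and at most 0.0349% in testis, and SMED30016408 (orange, right) fills at least 87.9% of *vmat* outside the testis and at most 1.45% in testis.

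Summed over its transcripts, *sert* stood at 87.2 ± 1.11 TPM in testis, 3.61 ± 0.556 TPM in non-gonadal captures and 1.80 ± 0.133 TPM in ovary. With the 4 rows replaced by their summed counts, *sert* was higher in testis than in non-gonadal captures by 4.57 on the log2 scale (SE 0.13, BH-adjusted p = 5.04e-12, edgeR quasi-likelihood) and ovary was lower than non-gonadal captures, at -1.75 (SE 0.14, BH-adjusted p = 1.89e-07, edgeR). Summed *vmat* stood at 61.2 ± 5.94 TPM in testis, 6.02 ± 1.22 TPM in ovary and 1.19 ± 0.303 TPM in non-gonadal captures. It was higher than in non-gonadal captures both in testis, by 6.44 (SE 0.19, BH-adjusted p = 5.49e-12, edgeR), and in ovary, by 1.71 (SE 0.19, BH-adjusted p = 3.87e-06, edgeR). Ovary was lower than testis by a log2 fold change of -6.32 (SE 0.15) for *sert* and -4.73 (SE 0.16) for *vmat*. Relative to non-gonadal captures, ovary was therefore lower in summed *sert* and higher in summed *vmat*, and testis was higher in both.

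The mean scaled levels of the 4 testis markers in ovary were 0.382% to 1.44% of their testis means (median 0.440%), and in non-gonadal captures 0.230% to 0.931% (median 0.253%). In single libraries they ranged from 0.192% to 1.95% in ovary and from 0.141% to 1.05% in non-gonadal captures. The testis-high transporters stood at similar percentages in ovary, at 0.408% for SMED30001138, 0.414% for SMED30009335, 0.417% for SMED30030401 and 0.457% for SMED30015164. In non-gonadal captures the values were 0.708%, 0.387%, 0.643% and 0.144% in the same order. The part of testis RNA in these low levels was not tested. The 4 markers differed by 0.61 to 0.87 on the log2 scale between ovary and non-gonadal captures and were not called. SMED30015164 differed by 1.67 and was called. By library, the summed marker level in ovary was 106, 51.7 and 106 TPM in replicates 1 to 3, and SMED30015164 stood at 0.525, 0.698 and 0.527 TPM in the same libraries. In non-gonadal libraries the marker sum was 25.1 to 52.9 TPM and SMED30015164 stood at 0.0950 to 0.155 TPM, both highest in replicate 1. Among the ovary libraries, the marker sum and the scaled levels of SMED30001138, SMED30009335 and SMED30030401 were lowest in replicate 2, and that of SMED30015164 was highest there. These orders rest on few reads, 3 to 28 per ovary library for the *sert* transcripts and 23 to 35 for SMED30015164. Their cause was not tested.

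**Figure D4:**
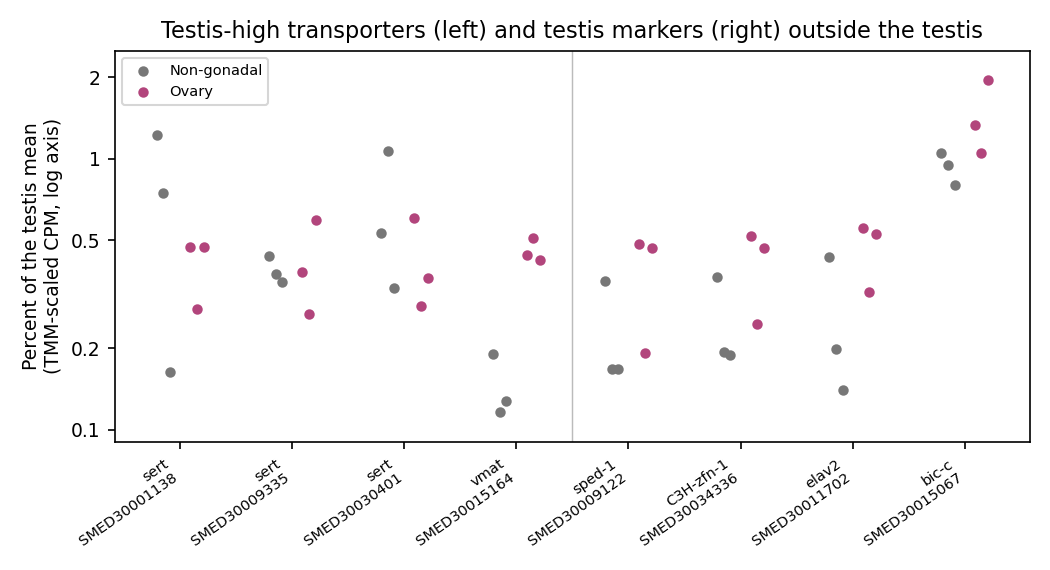
Each point is 1 non-gonadal (grey) or ovary (magenta) library and gives the TMM-scaled CPM of a transcript as a percent of its testis mean, on a log axis. The 3 *sert* transcripts overlap between ovary and non-gonadal captures, at 0.163% to 1.22%, whereas SMED30015164 is separate, at 0.423% to 0.508% in ovary and 0.116% to 0.190% in non-gonadal captures.

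Of the other pathway transcripts, 3 encode enzymes and 1 a receptor. Tryptophan hydroxylase, encoded by *tph1* (SMED30012020), takes the first step to serotonin and marks serotonergic neurons. It had 105, 126 and 85 reads in non-gonadal captures, 89, 67 and 61 in ovary and 2, 4 and 5 in testis, and so was low in the same tissue as *sert* SMED30017160. Its log2 fold change over non-gonadal captures was -1.09 in ovary (SE 0.23, BH-adjusted p = 0.00104, edgeR quasi-likelihood) and -4.52 in testis (SE 0.35, BH-adjusted p = 5.46e-08, edgeR). *tph1* passed the minimum level through non-gonadal and ovary libraries alone, so its differences from testis are a description. The ovary call was not made when libraries were scaled by size alone (-0.68) or without ovary replicate 2 (-0.96). *henna* (SMED30004098), which encodes another aromatic amino acid hydroxylase, was called lower in ovary than in non-gonadal captures at -1.02 (SE 0.18, BH-adjusted p = 2.96e-04, edgeR), close to the 2-fold threshold. That call was not made in 3 of the 9 fits that left out 1 library, at -0.88 without non-gonadal replicate 1, -0.97 without non-gonadal replicate 2 and -0.91 without ovary replicate 3, nor when libraries were scaled by size alone (-0.60). *henna* was not called in the other comparisons. Its level was 30.7 ± 7.08 TPM in non-gonadal captures, 23.4 ± 3.68 TPM in ovary and 19.8 ± 3.89 TPM in testis. *tph1* was lower in each tissue, at 2.64, 1.91 and 0.0825 TPM in the same order. The paper describes *henna* as the counterpart of a peripheral tryptophan hydroxylase of *Drosophila*.

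*aadc* (SMED30020439) encodes aromatic amino acid decarboxylase, which makes serotonin and dopamine from their precursors. It had 3208, 4281 and 3270 reads in ovary, 343, 459 and 420 in non-gonadal captures and 385, 308 and 407 in testis, highest in ovary as was *vmat* SMED30016408. Its log2 fold change in ovary was 2.56 over non-gonadal captures (SE 0.12, BH-adjusted p = 2.31e-09, edgeR quasi-likelihood) and 2.42 over testis (SE 0.12, BH-adjusted p = 7.51e-10, edgeR). The serotonin receptor *5htr* SMED30003867 had 261, 324 and 254 reads in ovary, 12, 12 and 11 in non-gonadal captures and 2, 0 and 1 in testis. In ovary it was higher than in non-gonadal captures by 4.00 (SE 0.24, BH-adjusted p = 1.43e-08, edgeR). *5htr* SMED30003867 passed the minimum level through its ovary libraries alone, so its differences from ovary are a description. Because testis had 3 reads, ovary over testis is given as a ratio of 153 (95% counting interval 52.3 to 746) and non-gonadal captures over testis as 9.53 (3.00 to 48.4), and both differences were called. The fitted log2 values were -3.14 for testis relative to non-gonadal captures and 7.13 for ovary relative to testis, and without testis replicate 1, which held 2 of the 3 reads, they were -4.06 and 8.05. Counted together, relative to non-gonadal captures ovary was higher for 2 of these 4 transcripts and lower for 2, none was higher and 2 were lower in testis, and 3 were higher in ovary than in testis with none lower. Of all transcripts tested, 18.3% and 18.8% were called higher and lower in the first of these comparisons, 33.4% and 35.1% in the second and 31.6% and 30.4% in the last. The counts of these 4 transcripts, of which *5htr* was tested only because ovary was high, are a description. Both lower calls in ovary, *tph1* and *henna*, are those not made under scaling by library size alone. A second *5htr* of the pathway was not analysed here.

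Across the 9 libraries, the pattern of each transporter was set against every other tested transcript by Pearson's correlation of log2 values, as a description over 9 points that fall into 3 tissues. For the testis-high transporters, 2003 transcripts reached 0.99 with SMED30001138, 2239 with SMED30009335, 2002 with SMED30030401 and 2267 with SMED30015164, which is 10.9% to 12.3% of those tested. Patterns of this shape were thus common among the transcripts tested. The correlation does not depend on the size of a change, so a high value does not show a shared restriction to testis. SMED30013990, the nearest to SMED30030401, stood at 31.9, 46.7 and 493 TPM in non-gonadal, ovary and testis captures. At 0.99 or above, SMED30017160 had 261 transcripts (1.42%), led by SMED30000524 at 0.998. SMED30016408 had none, and the nearest to it were SMED30032489 at 0.986, SMED30010832 at 0.983 and SMED30006103 at 0.982. The highest correlations with pathway transcripts were 0.976 between *sert* SMED30017160 and *tph1*, 0.951 between *vmat* SMED30016408 and *5htr*, and 0.939 between SMED30016408 and *aadc*. Of the 18415 other tested transcripts, 4081 reached 0.9 with SMED30017160 and 1013 with SMED30016408, so such values are not particular to the pathway. Others were negative, at -0.806 between SMED30016408 and *henna* and -0.920 to -0.961 between *tph1* and the testis-high transporters. The nearest transcripts of the testis-high group were SMED30022215, SMED30029748 and SMED30013322 for SMED30001138, SMED30020282, SMED30018490 and SMED30010988 for SMED30009335, SMED30013990, SMED30008492 and SMED30003977 for SMED30030401, and SMED30003996, SMED30010955 and SMED30033766 for SMED30015164, all at 0.999 or above.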

How the data were processed

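The transporter transcripts, the pathway transcripts and the markers were chosen with earlier results of these data known. Libraries were strand-specific, and 100 nt single-end reads were mapped by the authors with CLC Genomics Workbench onto a de novo transcriptome that included *zfs1*. The program version and the handling of multiply mapped reads are not stated in the sources used here. Read counts per transcript were deposited without normalization. TPM and RPKM were deposited as well, and RPKM served to recover transcript lengths. The deposited values named CPM are a signal that carries a factor per library, since they sum to 724797 to 1582270, and were used as deposited for the filter (1 or more in at least 3 libraries), where the plan had assumed plain CPM. The authors' own fold changes and p-values in the same table were not used. Libraries were grouped by the tissue in their labels.

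Under R 4.3.3, edgeR 4.0.16 with limma 3.58.1 gave quasi-likelihood tests with TMM scaling (factors 1.02 to 1.04 in non-gonadal, 1.37 to 1.39 in ovary and 0.670 to 0.727 in testis libraries) and 1 model for 9 libraries. The standard error is the log2 fold change divided by the square root of F. The p-values measure the spread between libraries of pooled worms. Shares of TPM were compared by exact permutation tests. On simulated counts with 200 of 18416 transcripts changed 4-fold, the test found 98.0% for ovary and 96.5% for testis relative to non-gonadal captures and 99.0% between the gonads, with 3, 2 and 4 false calls. The changed transcripts had a mean scaled CPM of at least 1, and equal numbers were raised and lowered. These rates therefore do not carry over to comparisons where many transcripts differ or where a tissue has few reads. Alternatives covered the scaling, the filter, DESeq2 1.42.0, thresholds, a replicate block, left-out libraries and summed rows. Named transcripts were the 6 transporters, 4 pathway transcripts, the 3 nearest patterns of each transporter and 3 relatives of *vmat*.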

Additional observations from a re-analysis of the deposited data

How the results depend on the processing

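For all 3 comparisons the number of transporters called (3, 5 and 6) was the same with DESeq2 size factors, library size alone, the DESeq2 Wald test, other filters, only the 2 tissues compared, an adjusted p of 0.05, no fold minimum, each library left out and a replicate block. Summing SMED30009335 or, as chosen after seeing the data, SMED30001138 with SMED30030401 left 1 row fewer to call. Same-numbered libraries deviated together weakly, with a positive correlation in every pair (0.0154 to 0.225, not over 0.1 for every pair). Libraries of different numbers correlated at -0.226 to 0.101, and not every library correlated best with its own number. The main fit did not pair the libraries by number. With the replicate block the numbers called were 3, 5 and 6. Scaling by library size alone moved the median log2 difference of all transcripts to 0.44 in ovary and -0.65 in testis relative to non-gonadal captures, and to 1.19 between the gonads, and it turned *aadc* SMED30020439 in testis against non-gonadal captures to -0.40 and *henna* SMED30004098 between the gonads to 0.14, neither of them called. It called 5311 transcripts higher in ovary than in non-gonadal captures (3364 with TMM) and 9738 higher in ovary than in testis (5828 with TMM). Without a fold minimum, 5248 transcripts were called higher in ovary and 5466 lower, relative to non-gonadal captures (3364 and 3466 with it), and *henna* was called between the gonads. Leaving out 1 library, the log2 fold change of SMED30009335 in ovary against non-gonadal captures ranged from -0.27 to 0.31, and *5htr* without testis replicate 1 was -4.06 in testis relative to non-gonadal captures and 8.05 in ovary relative to testis. The share of SMED30016408 in *vmat* in ovary minus non-gonadal captures ranged from -0.487 to 1.91 percentage points. The share of SMED30009335 in its pair with SMED30030401 ranged from -3.79 to 2.19 in ovary minus testis. The share of SMED30001138 in its pair with SMED30030401, added after seeing the data, ranged from -3.61 to 12.6 in ovary minus non-gonadal captures, from -3.46 to 12.7 in testis minus non-gonadal captures and from -3.03 to 2.57 in ovary minus testis, where raw counts in place of TPM gave 0.00587. The depth limits the testis-high *sert* transcripts outside the testis, where no library had more than 28 reads.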

Other observations

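The vesicular acetylcholine transporter is a relative of VMAT that loads acetylcholine in place of monoamines. In the part of the authors' annotation used here 3 transcripts matched it, and other parts were not searched. These 3 come from a list that the authors chose for enrichment in ovary on these libraries. Their ovary levels are therefore a description without a test. SMED30001666 stood at 34.1 ± 1.45 TPM in ovary, 3.15 ± 0.223 TPM in testis and 2.26 ± 0.457 TPM in non-gonadal captures (mean ± SD, n = 3 libraries each). This ovary level was above that of either *vmat* transcript, of which the higher, SMED30016408, stood at 5.44 ± 1.13 TPM. SMED30006235 stood at 7.40 ± 0.838 TPM in ovary and 2.27 ± 0.449 TPM in non-gonadal captures and had 5 reads in the 3 testis libraries together. SMED30009311 was low in all tissues, at 1.73 ± 0.609 TPM in ovary, 0.493 ± 0.0691 TPM in testis and 0.463 ± 0.0528 TPM in non-gonadal captures.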
